A study of Homo sapiens with 5 samples.

Results

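The dedifferentiated, invasive state of melanoma was described here by 10 genes, AXL, EGFR, NGFR, PDGFRB, SOX9, WNT5A, ROR2, NES, FOSL1 and JUN, among 64440 annotated genes, of which 20162 are protein-coding. They were taken as a fixed list, and for each of them the peaks of the histone demethylase PHF8 were read within 1 kb of any annotated transcription start site (TSS) and over the gene body. PHF8 chromatin immunoprecipitation followed by sequencing (ChIP-seq) was carried out with an anti-PHF8 antibody on SKMEL-147 cells, a line established from human melanoma, in 3 replicates named A, B1 and B2. Another 2 samples are input libraries (A and B), which enter only through the enrichment values of each peak. The series text speaks of a loss-of-function model made with PHF8 guide RNAs, but no label gives a genotype or treatment for a ChIP sample. The deposited lists of all 3 replicates carry the same abbreviation, scr, in their names, which the labels do not explain. The labels thus give 1 ChIP group, and no condition could be compared. Nothing in the labels states that the replicates came from separate cultures, so the spread between them may be technical. Expression was not measured in these samples, and the label of the list could not be set against RNA levels.

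Melanoma cells can leave the pigmented, melanocyte-like state and take on a migratory, therapy-tolerant one, in which lineage genes are low and receptor kinases, neural crest genes and AP-1 factors are high. AXL, EGFR, PDGFRB and ROR2 are receptor tyrosine kinases, NGFR is the low-affinity neurotrophin receptor, WNT5A is a ligand of ROR2 in non-canonical WNT signalling, SOX9, FOSL1 and JUN are transcription factors, and NES encodes nestin, an intermediate filament of progenitor cells. PHF8 reads a histone mark of active promoters through its plant homeodomain finger and removes methyl groups linked to silencing, and it is found mainly at promoters rich in CpG dinucleotides.

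PHF8 was found at the promoters of 9 of the 10 genes in all 3 replicates, but for most of them the signal was low for a bound promoter. Among all protein-coding genes, 60.2% had such a peak. The exception was ROR2, which had no peak in any replicate. EGFR and JUN lay close to the middle of the bound genes, NGFR and NES in the lower part, and FOSL1, WNT5A, AXL, PDGFRB and SOX9 each had a mean percentile under 10, a range that held 9.21% of all bound protein-coding genes. The percentile ranks the fold enrichment of a gene's strongest promoter peak among the 12139 protein-coding genes bound in all replicates, within each replicate, because the scale of enrichment differed between lists. Below, values of the replicates follow in the order A, B1, B2 unless named. The median of the bound members' mean percentiles was 9.81, against 50.8 over all bound protein-coding genes.

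The lists held 20120 to 21506 peaks, with a median fold enrichment of 18.9 in A and 11.8 in both B1 and B2. The weakest called summits carried 8 to 10 ChIP fragments, so weaker binding was not detectable at this depth. B1 and B2 share a letter with input B, and A shares one with input A, so replicate and input cannot be told apart.

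Sequences at 4 of these genes are given first, in the direction of each gene and with CpG dinucleotides in capitals. The EGFR (chr7:55086383-55086583, plus strand) and JUN (chr1:59250057-59250257, minus strand) sequences surround the strongest summit of replicate A, upstream of the gene. The AXL (chr19:41724927-41725127, plus strand) and ROR2 (chr9:94712511-94712711, minus strand) sequences are the 201 bases before the 5′ end of the gene record, in hg19. The stretches held 2 CpGs at AXL, which was bound, 27 at ROR2, which was not, 18 at EGFR and 16 at JUN. Summit stretches and stretches before a gene are unlike windows, so these counts are not a direct comparison. The AXL summits lay inside the gene, outside the stretch printed for it. In the same window for each gene, 501 bp around the gene-record 5′ end, AXL had 17 CpGs, ROR2 67, EGFR 67 and JUN 26.
EGFR: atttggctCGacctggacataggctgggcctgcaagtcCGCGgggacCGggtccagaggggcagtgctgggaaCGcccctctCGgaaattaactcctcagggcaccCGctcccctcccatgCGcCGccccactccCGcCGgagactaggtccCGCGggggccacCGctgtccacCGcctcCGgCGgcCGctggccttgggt
JUN: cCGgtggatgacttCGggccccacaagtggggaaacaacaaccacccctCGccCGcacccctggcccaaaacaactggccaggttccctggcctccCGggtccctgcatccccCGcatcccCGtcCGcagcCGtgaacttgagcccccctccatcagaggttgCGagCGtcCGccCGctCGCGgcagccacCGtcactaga
AXL: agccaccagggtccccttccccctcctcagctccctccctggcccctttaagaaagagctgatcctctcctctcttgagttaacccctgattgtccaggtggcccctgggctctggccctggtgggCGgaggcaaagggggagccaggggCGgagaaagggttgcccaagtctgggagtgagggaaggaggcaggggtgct
ROR2: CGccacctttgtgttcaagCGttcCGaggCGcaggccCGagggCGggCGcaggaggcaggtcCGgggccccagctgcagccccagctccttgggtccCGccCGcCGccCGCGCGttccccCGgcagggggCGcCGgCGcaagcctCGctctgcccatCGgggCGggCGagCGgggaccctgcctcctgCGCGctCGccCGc

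EGFR, the epidermal growth factor receptor (ENSG00000146648, chr7:55086710-55279321, plus strand), had the highest mean percentile of the 10 genes. A single promoter peak was called in each replicate, merging to chr7:55086216-55087466, and its fold enrichment was 34.3, 21.1 and 22.6. The mean percentile was 59.3 ± 7.71 (SD, n = 3), so that all replicates placed it above the middle of the bound genes. The summits lay 227, 251 and 243 bp upstream of the gene start, and 87, 62 and 69 fragments were recovered there. The local background equalled the genome-wide value of 1.567 fragments in A. A weak peak was also found in an intron, about 115 kb from the start (chr7:55201310-55201566), with a fold enrichment of 4.38, 5.51 and 5.02. It recurred in every replicate with summits within 32 bp of each other.

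NGFR (ENSG00000064300, chr17:47572655-47592370, plus strand) ranked next among the receptors. Its strongest peak had a fold enrichment of 30.7, 13.3 and 13.4, and the summits lay 214, 239 and 210 bp upstream of the gene start. The mean percentile was 32.3 ± 9.63 (SD, n = 3), the widest spread of the list, with A at 43.2, B1 at 25.1 and B2 at 28.5. Replicate A thus stood apart from B1 and B2 at this promoter. The ratio of A over B1 was 2.31 and that of A over B2 was 2.29, against medians of 1.69 and 1.78 over all bound protein-coding genes, which placed NGFR at percentiles 89.0 and 85.4 of these ratios. For the other 8 bound members the ratio of A over B1 was 1.30 to 1.75. A weaker peak more than 2 kb into the gene (chr17:47574829-47575154), also in the TSS window of the gene ENSG00000279036, was called in A and B1 at 6.74 and 5.35 and had no counterpart in B2.

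AXL, the receptor for GAS6 (ENSG00000167601, chr19:41725128-41767671, plus strand), and PDGFRB, the platelet-derived growth factor receptor beta (ENSG00000113721, chr5:149493402-149535435, minus strand), had low fold enrichment. AXL had a fold enrichment of 10.6, 8.17 and 5.68 at a mean percentile of 5.40 ± 2.76 (SD, n = 3). PDGFRB had 10.6, 7.16 and 5.91 at 4.71 ± 1.20. Their percentiles of fold enrichment overlapped, and the difference was smaller than the spread between replicates. Ranked by fragments, AXL was at 15.6 ± 7.0 and PDGFRB at 3.58 ± 1.17 (SD, n = 3), and the replicate ranges did not meet. At AXL the summits lay in the UTR, 142, 134 and 94 bp into the gene and just before an alternative TSS. Other AXL peaks at 3.55 to 5.35 were each found in 1 replicate. The local background at the AXL summit was 2.68, 3.40 and 6.22 fragments, and B1 exceeded B2 by a ratio of 1.44, at percentile 96.0 of all bound protein-coding genes. The fragments themselves numbered 38, 35 and 40. The lower fold in B2 thus came with a higher background and not with fewer fragments. At PDGFRB, replicate A had 1 peak of 574 bp that spans the gene start, while B1 and B2 each had a pair of peaks there, one inside the UTR at 7.16 and 5.91 and one upstream at 5.42 and 5.87. Only 29, 20 and 17 fragments were recovered at the strongest summits.

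ROR2, a receptor tyrosine kinase for WNT5A (ENSG00000169071, chr9:94325373-94712510, minus strand), spans 387138 bp and had neither a promoter nor a gene body peak in A, B1 or B2. Among protein-coding genes 34.3% had no peak in any replicate, and among the 3666 longer than 100 kb this share was 22.2%. The nearest peaks lay about 138 kb beyond its 3′ end at NFIL3 and about 165 kb beyond its 5′ end at SPTLC1, with a fold enrichment of 11.0 to 18.4 and 26.1 to 38.1. Peaks at these neighbouring genes do not show whether a peak at ROR2 itself could have been called, which was not tested. The 501 bp around the gene start had a GC content of 76.4%, an observed over expected CpG ratio of 0.917 and 67 CpGs. With these values the ROR2 start met the limits for a CpG-island-like sequence (GC share of at least 0.5 and ratio of at least 0.6), and 80.8% of protein-coding genes with such a 5′ end were bound.

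**Figure D1:**
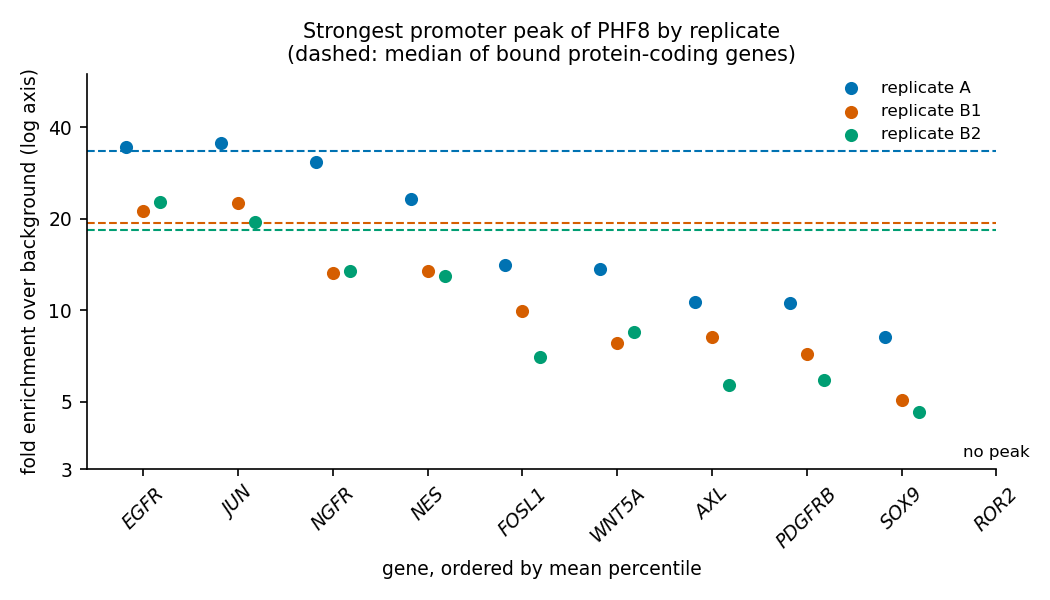
Fold enrichment of the strongest PHF8 promoter peak (log axis) for each gene in replicates A, B1 and B2, with dashed lines at the medians of bound protein-coding genes (33.4, 19.4 and 18.4). EGFR and JUN sit above these lines in every replicate, the other 7 bound genes sit below them, and ROR2 has no peak.

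WNT5A (ENSG00000114251, chr3:55499743-55524567, minus strand) had a broad but low domain of PHF8. The strongest peak had a fold enrichment of 13.6, 7.80 and 8.49, and the mean percentile was 8.71 ± 1.46 (SD, n = 3). The promoter peaks together covered 2026, 1770 and 2245 bp, against medians of 1020, 964 and 929 bp over bound protein-coding genes. By this span WNT5A was at a mean percentile of 95.0 ± 2.74 (SD, n = 3), so that it was among the widest bound promoters and among the weakest. Taken over the replicates together, the peaks merged to 1 region of 2549 bp (chr3:55520314-55522862), while each replicate held more than 1 peak there. The domain lay at an internal TSS, with the summits 128, 131 and 200 bp downstream of it in the UTR and 3361 to 3433 bp from the 5′ end of the gene record. No peak lay within 1 kb of that end, whose 501 bp had 2 CpGs and a CpG ratio of 0.0787, while the summit windows had 52. Among bound protein-coding genes 89.7% had a peak at the gene-record start in all replicates. The domain also met the TSS window of the antisense gene WNT5A-AS1, and peaks cannot be assigned to one of the 2 genes.

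JUN, the founding AP-1 subunit (ENSG00000177606, chr1:59242517-59249720, minus strand), carried the most fragments. Its strongest peak had a fold enrichment of 35.6, 22.5 and 19.4, at a mean percentile of 57.9 ± 4.13 (SD, n = 3). JUN and EGFR overlapped in percentile and their difference was smaller than the spread between replicates. The summits lay 437, 433 and 442 bp upstream of the gene, a spread of 9 bp. A separate second peak stood 153, 134 and 144 bp inside the gene, in the UTR, with a fold enrichment of 15.9, 13.7 and 12.3. Both peaks recurred in every replicate, and both met TSS windows of LINC01135 and ENSG00000290013. The strongest summit held 146, 110 and 99 fragments over a local background of 3.13, 3.93 and 4.15, whereas the genome-wide background was 1.567, 1.932 and 2.044. Ranked by fragments in place of fold enrichment, JUN was at percentile 88.2 ± 2.93 (SD, n = 3), and EGFR at 48.7 ± 7.85. The order of the 2 genes thus depended on the measure, as JUN led by fragments with ranges that did not meet.

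FOSL1 (ENSG00000175592, chr11:65659520-65668044, minus strand), which encodes the AP-1 subunit FRA1, had weaker peaks than JUN. The fold enrichment was 14.1, 9.94 and 7.02, with 38, 29 and 21 fragments. The mean percentile was 9.81 ± 3.76 (SD, n = 3). As at AXL, B1 exceeded B2, here by a ratio of 1.42, at percentile 95.4 of all bound protein-coding genes. The summits lay 123, 116 and 135 bp downstream of the nearest TSS, in the coding part of an exon. The strongest FOSL1 peaks were narrow, at 410, 240 and 195 bp. A weak peak in an intron (chr11:65666487-65666811) had a fold enrichment of 4.35, 5.91 and 4.37. Its summits lay 1144, 1248 and 1179 bp from the nearest TSS, just outside the 1 kb window. FOSL1 and EGFR were the 2 members with a gene body peak outside every TSS window in all 3 replicates, which 2.26% of protein-coding genes had.

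SOX9 (ENSG00000125398, chr17:70117161-70122557, plus strand), a neural crest transcription factor, had the lowest fold enrichment among the bound members. The fold enrichment was 8.17, 5.07 and 4.64, the mean percentile was 1.59 ± 0.541 (SD, n = 3), and its range did not meet that of the next gene, PDGFRB. Without B2 the mean was 2.40. Ranked by fragments, SOX9 was at 4.36 ± 4.21 (SD, n = 3) and was not separated from PDGFRB. The summits lay 80, 75 and 84 bp downstream of the TSS in the UTR, within 9 bp of each other, and the window was shared with SOX9-AS1. The position was therefore as tight as that of JUN although the enrichment was lower. The fragments were 40, 17 and 16, and in A the local background of 4.02 was higher than the genome-wide value. A second SOX9 promoter peak was called in each replicate, at a different place each time (upstream in A, in an intron in B1 and in coding sequence in B2), with a fold enrichment of 3.55 to 6.23.

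NES (ENSG00000132688, chr1:156638555-156647199, minus strand), the nestin gene, was between these groups. The fold enrichment was 23.1, 13.5 and 12.9. Its mean percentile was 25.8 ± 0.916 (SD, n = 3), a small spread, and it did not overlap FOSL1 below it. It did overlap NGFR above it. The summits lay 147, 184 and 177 bp into the gene, in coding sequence, with 70, 48 and 48 fragments. A smaller peak about 0.85 kb into the gene was called in B1 and B2 at 5.51 and 4.50 and was missing from A.

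**Figure D2:**
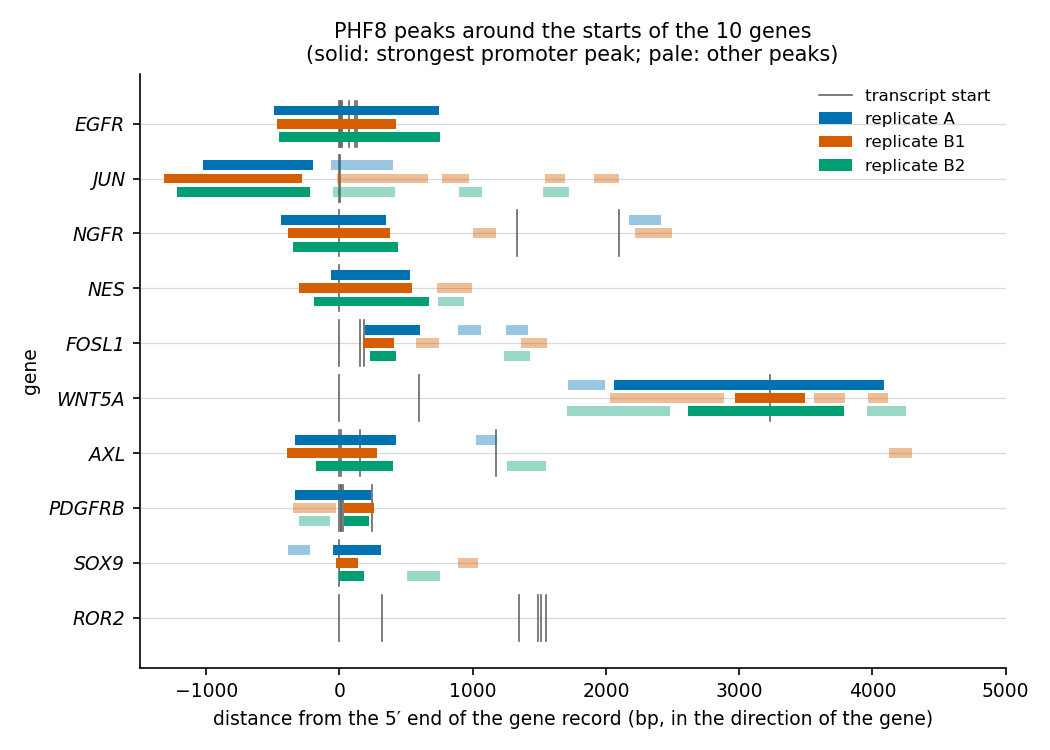
Extent of each PHF8 peak from 1500 bp before to 5000 bp after the 5′ end of the gene record (in bp, in the direction of the gene), with 1 row of bars per replicate and vertical lines at annotated transcript starts. The upstream peaks of EGFR, JUN and NGFR, the internal WNT5A domain and the empty ROR2 row can be seen, while the distal intron peak of EGFR lies outside the range.

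In the order by mean percentile, neighbouring genes differed beyond their replicate ranges at 3 places, between JUN and NGFR, between NES and FOSL1, and between PDGFRB and SOX9. EGFR and JUN were not separated from each other, nor NGFR from NES, nor FOSL1, WNT5A, AXL and PDGFRB each from the next. These comparisons rest on 3 replicates of 1 cell line and are given without a test, since an exact sign-flip test over 3 replicates cannot go below 0.25. EGFR, JUN, NGFR and NES were the 4 members above a fold enrichment of 10 in all replicates, which 82.4% of bound protein-coding genes were. At least 2 promoter peaks in all replicates were found at AXL, SOX9 and JUN, against 31.9% of bound protein-coding genes. Of these genes, only JUN had a second promoter peak at the same place in every replicate. The further AXL and SOX9 promoter peaks were each found in 1 replicate.

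Over all 10 genes, 63 peaks were counted, which merged to 26 regions. Of these, 12 were found in all 3 replicates, 4 in 2 and 10 in 1. The fold enrichment was 4.35 to 35.6 (median 10.6) for regions in 3 replicates and 2.73 to 6.74 (median 4.22) for those in 2. For regions in 1 replicate it was 3.38 to 6.23 (median 3.72). The 9 strongest promoter peaks and the second JUN peak, together with the intron peaks of EGFR and FOSL1, made up the 12. The −log10 q-value of the strongest promoter peaks ran from 5.77 at SOX9 in B2 to 181 at JUN in A, so even the weakest was far past the cutoff. The regions of PDGFRB and WNT5A held 5 and 9 peaks, since B1 and B2 split that of PDGFRB and every replicate split that of WNT5A.

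**Figure D3:**
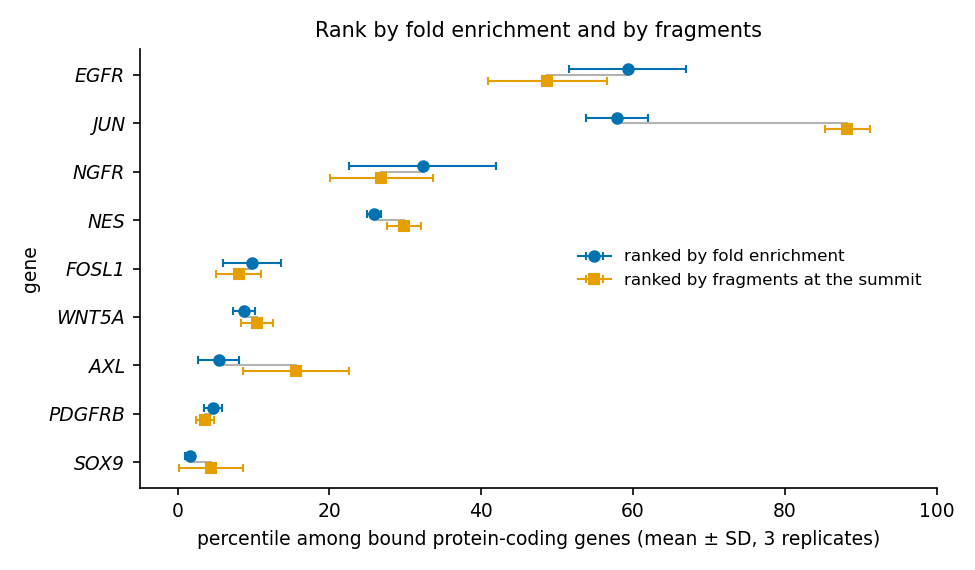
Percentile of each bound gene among bound protein-coding genes, ranked by fold enrichment (circles) and by ChIP fragments at the summit (squares), as mean ± SD over 3 replicates. JUN moves from 57.9 to 88.2, EGFR from 59.3 to 48.7 and AXL from 5.40 to 15.6, and the other genes move less.

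The base composition at the sites was compared next. In 501 bp around the strongest summit, EGFR, NGFR, SOX9, WNT5A, NES, FOSL1 and JUN were CpG-island-like in every replicate, which was 7 of the 9 bound members. Among bound protein-coding genes the share was 93% in replicate A. AXL had a GC content of 70.1% but a CpG ratio of 0.282 in A, and PDGFRB had 64.3% and 0.316. These were the 2 bound members without an island-like window, and both had low percentiles. Over the 854 bound protein-coding genes without such a window the median of the mean percentiles was 22.0, and over the others it was 52.7. SOX9, FOSL1 and WNT5A had island-like windows and were also below percentile 10, so low percentiles were found both with and without an island-like window. The CpG ratio of WNT5A was 0.999 at its summit in A, the highest of the list. At the gene-record 5′ end itself, EGFR, NGFR, SOX9, ROR2 and FOSL1 were island-like. Of protein-coding genes with no island-like 5′ end 30.7% were bound, a group that holds AXL, PDGFRB, WNT5A, NES and JUN.

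**Figure D4:**
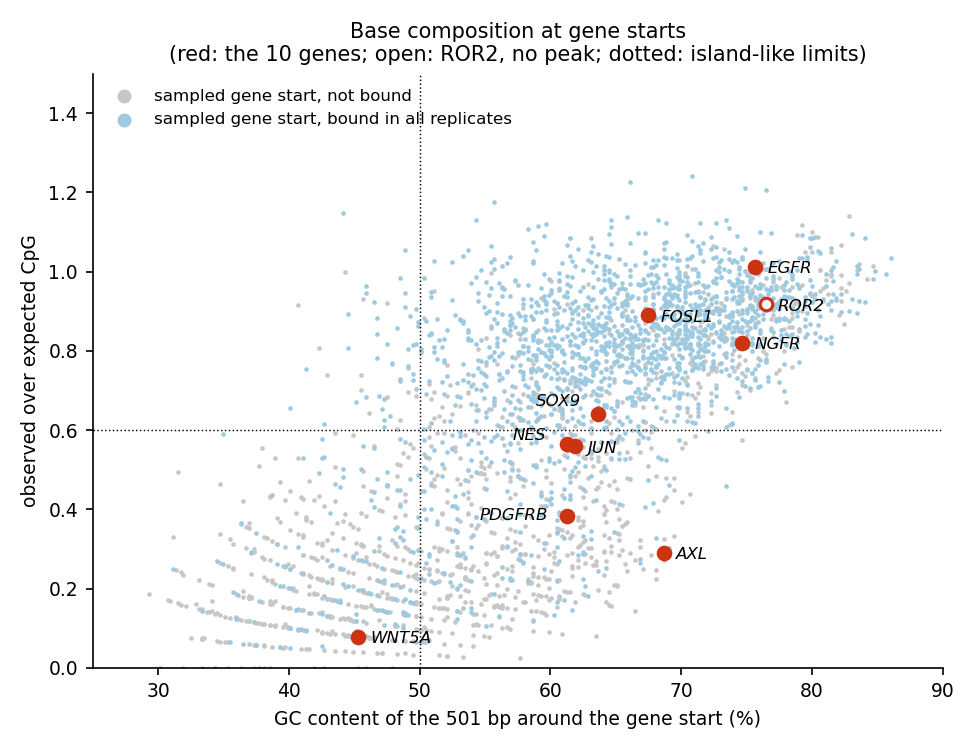
GC content (%) and observed over expected CpG ratio in the 501 bp around the gene-record 5′ end for the 10 genes (red, ROR2 open) and 3000 sampled protein-coding genes, coloured by whether PHF8 was bound in all replicates. ROR2 lies beside EGFR at 76.4% and 0.917 among mostly bound starts, and AXL, PDGFRB and WNT5A lie in the CpG-poor range.

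Recognition motifs of several families of transcription factors were searched on both strands of the 301 bp around the strongest summit of replicate A. The AP-1 motif TGACTCA was found in 1.56% of the windows of bound protein-coding genes and in 1 of the 9 members, FOSL1, 118 bp from its summit. The motif of TEAD factors (GGAATG) was in 9.41% of windows and, among the members, at WNT5A. The CRE motif TGACGTCA (0.651% of windows) and the E-box CACGTG (5.21%) matched no member. The GC box GGGCGG, the site of SP factors, was in 66.7% of windows and in 5 members, EGFR, NGFR, PDGFRB, NES and JUN. No motif contains another, and a match describes letters in a window, not binding.

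The related genes of each pathway gave a scale for the members. In the non-canonical WNT list, 18 of 20 genes were bound, with a median percentile of 30.2, and WNT11 and VANGL2 were not. The receptor FZD7 had the highest mean percentile (92.3). ROR1, the paralogue of ROR2, had the lowest (0.265), with a fold enrichment of 4.68, 4.38 and 3.54. Of the pair of ROR receptors, one was thus at the lower edge of the bound genes and the other had no peak. In the AP-1 family, 14 of 16 genes besides JUN and FOSL1 were bound at a median of 24.7, from BATF3 at 4.71 to ATF4 at 83.2, while BATF and BATF2 were not bound in all replicates. JUN lay above this median and FOSL1 below it.

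Of 23 relatives and ligands of the receptor kinases, 12 were bound, at a median percentile of 13.2. The EGFR ligand HBEGF was highest (77.3) and the PDGF ligand PDGFC lowest (2.52). In the neurotrophin list, 6 of 14 genes were bound at a median of 21.8, from RTN4R at 9.50 to TRAF6 at 65.5. Of 8 other SOX genes, 6 were bound at a median of 16.7, with SOX4 at 3.76 and SOX6 at 66.0 as the extremes and SOX2 and SOX8 not bound in all replicates. By mean percentile SOX9 was thus lower than each bound gene of its family list, but not in every replicate. In A its fold enrichment of 8.17 was above that of SOX4 (7.75) and SOX10 (7.27), while in B1 and B2 it was below both. Of 10 other intermediate filament genes, 4 were bound, from VIM at 10.1 to LMNB1 at 35.7, and NES was close to their median of 25.7.

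Another 24 genes of the invasive state gave a similar picture, with 21 bound at a median percentile of 19.6 and FN1 the highest at 53.5. F2RL1, IL6 and BIRC3 were not bound in all replicates. In the opposite, melanocyte lineage list, 9 of 22 genes were bound at a median of 22.6, from the endothelin receptor EDNRB at 0.534 to the melanosome matrix gene PMEL at 82.4. The shares bound were thus 90% of the 10 genes, 87.5% of the other invasive state genes and 40.9% of the lineage genes, beside 60.2% of all protein-coding genes, and no test was made of lists that were chosen with results known. The list medians, from 9.81 to 30.2, were all below the 50.8 of all bound protein-coding genes, so a low rank was not particular to the 10 genes. SOX10, ERBB3 and KIT each stood in more than 1 list.

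**Figure D5:**
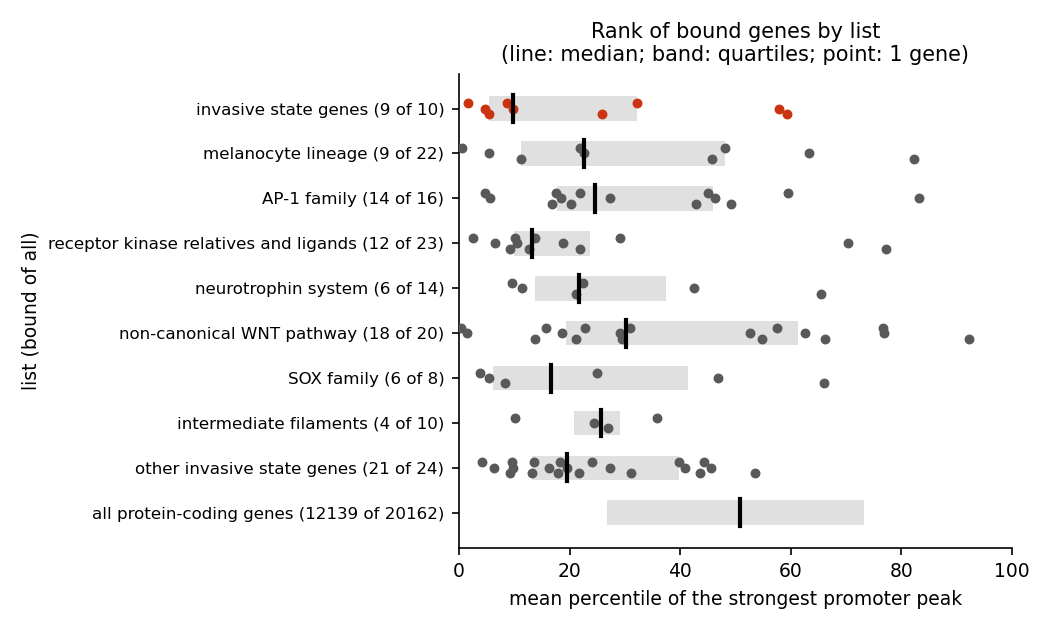
Mean percentile of the strongest promoter peak for each bound gene (points), by list, with the median (line) and quartiles (band), and the number bound of all genes in each list. The bound invasive state genes have a median of 9.81, each related list lies between 13.2 and 30.2, and all bound protein-coding genes have 50.8.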

How the data were processed

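PHF8 ChIP-seq and input libraries of SKMEL-147 cells were grouped by their titles into 3 ChIP replicates and 2 inputs. As described by the submitters, the authors mapped reads to hg19 with Bowtie2 and called narrow peaks with MACS for each replicate separately against input. The study's supplement names MACS2, and Picard is listed in the submitters' processing notes without a role. Exact versions and the treatment of duplicates are not given in the sources used here. The deposited lists hold a fold enrichment, a linear ratio of ChIP over local background at the summit. They also hold −log10 p-values and −log10 q-values as written by the authors' MACS run. The deposited score is derived from the q-value and was not used. The study's printed q cutoff was read as below 0.05, and every deposited peak passed it, at a fold enrichment above 1.5.

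The files were read with Python 3.11.15 (NumPy 2.4.6, SciPy 1.17.1), and sequence came from the GRCh37 genome with samtools 1.23.1. TSSs were all transcript starts of GENCODE release 44 lifted to GRCh37, without mitochondrial and duplicated Y records. A gene was bound if a peak overlapped the 1 kb on either side of any of its TSSs in all 3 replicates, and a gene body peak lay in the gene but outside every TSS window of any gene. Fold enrichment was ranked within each replicate and the percentiles averaged. Fragments at a summit were solved from the fold enrichment and the p-value under a Poisson law and were whole for 100% of peaks (tolerance 0.001). They cover counting error only, and library totals are unknown. Scripts were tested on simulated data. CpG ratios used 250 bp on either side of a summit or start. Replicates were compared by their ranges, and values are mean ± SD. The alternatives were other windows, TSS sets, cutoffs and ranks, and leaving out each replicate.

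The members and lists were chosen with earlier results of these data known. The genes named are the 10 members, genes sharing their promoter peaks, and from each related list the highest and lowest ranked bound gene, with the unbound genes where they are 5 or fewer. An item named by this rule is not reported here. NFIL3 and SPTLC1 were named after their values were seen. The input libraries were not analysed here on their own. Promoter sequences of the remaining members are not printed.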

Additional observations from a re-analysis of the deposited data

How the results depend on the processing

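The number of members with a promoter peak in all replicates was 8 or 9 under every alternative except a fold enrichment above 10, where it was 4. AXL, FOSL1, PDGFRB, SOX9 and WNT5A were lost there, and 49.6% of protein-coding genes were bound. With the 5′ end of the gene record as the only TSS, WNT5A was lost, the count was 8 and the median percentile of bound members was 17.7. The median was 33.6 at a fold enrichment above 10, where only 4 members remained by construction, and 15.6 when ranked by fragments. The cause of the last shift was not tested. Leaving out each replicate gave medians of 9.92 to 12.4, the highest without B2, 9 bound members each time and 2 to 3 members with a gene body peak. The number with a gene body peak, 2 as reported, was 1 with a TSS window of 2 kb, which took in the FOSL1 intron peak. It was 0 at a fold enrichment above 10. It was 3 with a window of 500 bp, with a peak in at least 2 replicates, and with the gene-record 5′ end as the only TSS. With 100 bp on either side, 7 in place of 8 members had an island-like summit or start, SOX9 being lost. Among single genes, 5 moved up and 1 moved down by more than their replicate SD when ranked by fragments, and 4 moved up when ranked by q-value, JUN to 78.8. No paired analysis was possible because the series has 1 ChIP group and no test between groups. The 3 replicates limit precision, and no summit was called under 8 fragments in A and B1 or under 10 in B2.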
